A study of Mus musculus with 15 samples.

Results

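The genes described are Ppara, the nuclear receptor PPARa, its coactivator Ppargc1a, and 8 genes known as targets of the receptor in peroxisomal, microsomal or mitochondrial fatty acid use, namely Ehhadh, Acaa1b, Cyp4a14, Acot3, Pex11a, Vnn1, Pdk4 and Cpt1b. These 10 genes were selected on their expression in the same arrays, in which the Ppara level was higher and the Ehhadh level lower in the HF than in the ND group, so the difference between HF and ND is given for them as a description, with no test. Of 45101 probe sets (short DNA features that together read 1 transcript), 20 were annotated to the 10 genes. Of these, 17 carried 1 gene symbol and covered 9 genes, out of 18193 genes measured in all. Cpt1b had only a probe set shared with Gm44502 and Chkb. Expression was measured on Affymetrix Mouse Genome 430 2.0 arrays in the liver of male C57BL/6J mice, with 5 groups of 3 mice and 1 array per mouse. Feeding began at 7 weeks of age and lasted 9 weeks in every group. Fat gave 10% of the energy in the ND diet and 60% in the HF diet. The remaining groups ate the HF diet with 2% freeze-dried coffee powder, which was caffeinated in HFCC, decaffeinated in HFDC, and green, unroasted and caffeinated in HFGC. The arrays compared the diet alone and each coffee on top of the HF diet, and they came from whole liver of mice drawn at random from larger groups.

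PPARa is switched on by fatty acids and binds DNA together with a retinoid X receptor, at direct repeats of a short hexamer spaced by a single base. In mouse liver it is best known for the fasting response and for the action of fibrate drugs, under which it raises the genes of peroxisomal and mitochondrial beta-oxidation, of microsomal omega-oxidation and of peroxisome division. Peroxisomes shorten very long chain and dicarboxylic fatty acids, the latter made by omega-hydroxylases of the Cyp4a family, and pass the shortened chains to mitochondria.

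Values below are log2 of the deposited intensity, each SD is over 3 mice, and a call means an adjusted p under 0.05 in a limma fit over all genes. A level cannot be compared between probe sets, since each binds with its own strength. Array medians lay between 48.5 and 49.95 on the linear scale. All 5 measured hepatocyte markers ranked at or above percentile 98.4 of genes, and the 6 skeletal muscle and 3 measured adipocyte markers lay below the median gene in level. The 3' minus 5' value, a log2 difference between control probe sets at both ends of Gapdh and Actb that rises as RNA is degraded or copied incompletely, was 1.22 ± 0.17 in HF (SD, n = 3, range 1.08 to 1.40). The ND, HFCC, HFDC and HFGC means were 0.88, 0.93, 0.93 and 0.82, and HF replicate 2 had the highest value of all arrays. Leaving out HF replicate 2 took the genes called between the coffee groups together and HF from 1868 to 4, and leaving out HF replicate 3 took them to 64.

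Ppara was highest in HF and lower in each coffee group. Its values were 9.91, 10.33 and 10.03 in ND and 10.78, 11.27 and 10.98 in HF. They were 10.48, 10.29 and 10.34 in HFCC, 10.62, 10.43 and 10.36 in HFDC, and 10.26, 10.39 and 10.02 in HFGC. Every HF array lay above all 12 others, and the ND and coffee arrays overlapped. The HF mean of 11.01 ± 0.25 exceeded the ND mean of 10.09 ± 0.22 by 0.92 (SE 0.13, 95% interval 0.64 to 1.21), a 1.89-fold difference. Across the 9 measured genes, 3 (Ppara, Ehhadh and Cyp4a14) had HF and ND arrays that did not overlap, against 26.5% of all genes, and 13.5% of all genes were called in that comparison. In bulk liver, fewer cells of a type and less RNA per cell cannot be told apart.

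The coffee groups together were lower than HF in Ppara by a log2 difference of -0.66 (SE 0.11, adjusted p = 0.0073, lower in 9 of 9 arrays), which is 1.58-fold. Coffee and HF arrays did not overlap in 8.31% of all genes. Of the 9 genes, 1 (Ppara) was called in this comparison, in which 10.3% of all genes were called. All comparisons with HF or ND share those arrays with the difference that chose the genes, so their p-values are not independent of that choice. Ppara also fell in each coffee group, with log2 differences of -0.64 in HFCC (adjusted p = 0.036), -0.54 in HFDC (adjusted p = 0.037) and -0.79 in HFGC (adjusted p = 0.016). Of the 9 genes, 1, 2 and 1 were called in these comparisons, with 1.64%, 5.02% and 3.09% of all genes. The coffee groups together stood 0.26 above ND (SE 0.11, 95% interval 0.03 to 0.50, adjusted p = 0.20). Ppara tracked the 3' minus 5' value over the 15 arrays with a Pearson r of 0.89, and with an r of 0.76 after group means were taken out. With it in the model, the difference between the coffee groups and HF was -0.28 (adjusted p = 0.47) and that between HF and ND 0.52, and its part in the result was not tested beyond this. Without HF replicate 2 the coffee difference was -0.53 (adjusted p = 0.079), and without HF replicate 3 it was -0.67 (adjusted p = 0.051).

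**Figure D1:**
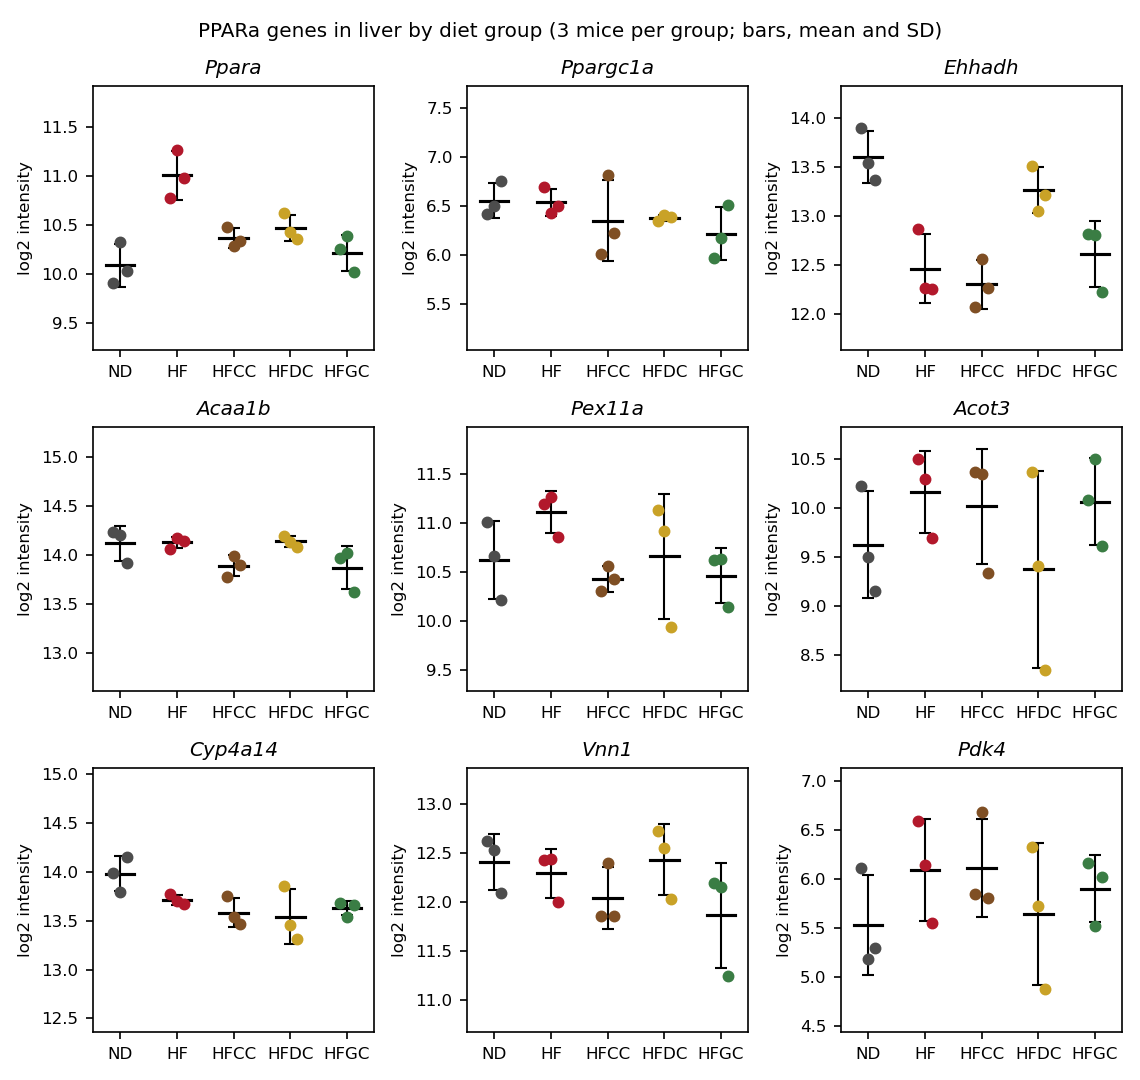
Log2 intensity of the 9 measured genes (y axis) in the 5 diet groups (x axis). Each point is 1 array, the bar is the mean and the whisker the SD of 3 arrays. The 3 HF points of Ppara lie above all other points, and the ND and HFDC points of Ehhadh lie above those of HF, HFCC and HFGC.

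The separate calls of Ppara in each coffee group rested on more arrays. The HFCC call ended without HF replicate 2 or 3, any HFCC array or HFDC replicate 2 (adjusted p 0.0502 to 0.183). The HFDC call ended without HF replicate 2 or 3, HFCC replicate 3 or any HFDC array (0.0505 to 0.162), and the HFGC call without HF replicate 2 or 3 or HFGC replicate 3 (0.0546 to 0.101). The direction held in each of these fits. Between coffee groups, Ppara differed by 0.10 for HFDC minus HFCC (95% interval -0.19 to 0.39), by -0.15 for HFGC minus HFCC (-0.43 to 0.14) and by -0.25 for HFGC minus HFDC (-0.53 to 0.04).

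All 3 probe sets of Ppara gave the same picture. The log2 difference between HF and ND was 0.92, 0.70 and 0.82, and the coffee groups together differed from HF by -0.66, -0.63 and -0.61 (SE 0.10 to 0.11). Each of these coffee differences was called in a fit of all probe sets (adjusted p 0.0077 to 0.0081), in which 7.24% of probe sets were called. The pairwise r between the Ppara probe sets over 15 arrays was 0.93 to 0.97. The 3 probe sets read the same RNA on the same arrays, so their agreement is no separate support. The HF arrays also served to choose the gene, and these p-values are not independent of that choice.

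**Figure D2:**
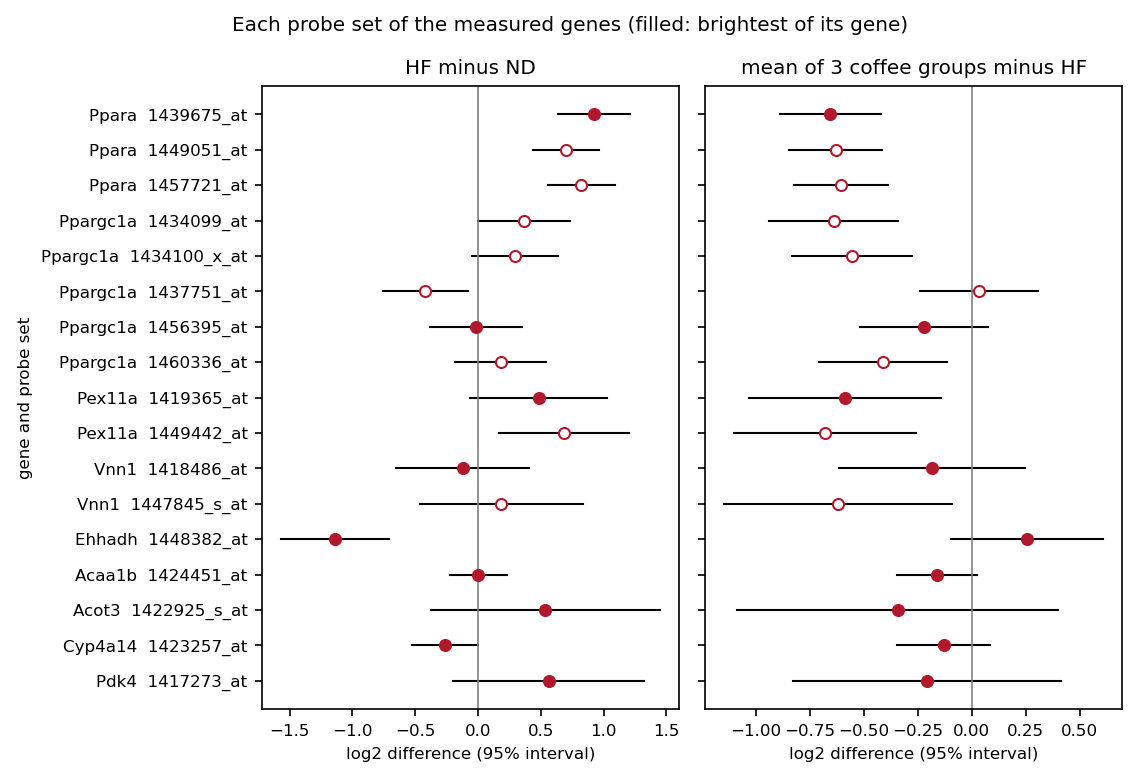
Log2 difference (x axis) of each probe set with 1 symbol (y axis), for HF minus ND on the left and for the mean of the 3 coffee groups minus HF on the right. Lines are 95% intervals over 15 arrays in 1 fit, and filled points mark the brightest probe set of a gene. The 3 Ppara probe sets sit together at 0.70 to 0.92 and -0.66 to -0.61, and the 5 Ppargc1a probe sets spread over both sides of 0.

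Ppargc1a, the coactivator PGC-1a that adapts mitochondrial and gluconeogenic genes to fasting and cold, lay near the median gene in level. The brightest of its 5 probe sets read 6.42, 6.49 and 6.75 in ND, 6.69, 6.43 and 6.49 in HF, 6.01, 6.81 and 6.22 in HFCC, 6.34, 6.40 and 6.39 in HFDC, and 5.97, 6.17 and 6.50 in HFGC. The HFDC arrays lay below all ND and HF arrays, and the other groups overlapped. HFDC and HF arrays did not overlap in 26.2% of all genes. The HF mean differed from ND by -0.02 (95% interval -0.38 to 0.35), and the coffee groups together from HF by -0.22 (95% interval -0.52 to 0.07, adjusted p = 0.35).

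The other Ppargc1a probe sets matched the brightest only in part, with an r to it of 0.53 to 0.83. Probe sets 1434099_at and 1434100_x_at had their highest means in HF, at 6 and 6.015, still below the median gene level of 6.407. They fell in the coffee groups together, with differences of -0.64 (adjusted p = 0.018) and -0.55 (adjusted p = 0.023), with r = 0.92 between them. Probe set 1460336_at differed by -0.41 (adjusted p = 0.087) and 1437751_at by 0.03 (adjusted p = 0.91). The same 4 differed between HF and ND by 0.36, 0.30, 0.18 and -0.42. The lowest pairwise r, between 1434099_at and 1437751_at, was 0.11. The direction between HF and ND depended on the probe set. In the coffee groups together against HF, every probe set but 1437751_at had a negative difference.

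Of the other 17 measured genes of the receptor, its partners and its coregulators, 0 were called higher and 2 lower in HF than in ND. In that comparison the calls covered 8.92% of all genes upward and 4.63% downward, which also holds beside the counts of the lists that follow. The 2 genes were Lpin1, a phosphatidate phosphatase that also coactivates PPARa (-1.08), and Sirt1, an NAD-dependent deacetylase (-0.47). In the coffee groups together against HF, 2 of the 17 rose and 3 fell. The calls in that comparison covered 3.39% of all genes upward and 6.88% downward, which also holds beside the coffee counts of the lists that follow. Ppargc1b, the coactivator related to Ppargc1a, fell by 0.51 on the log2 scale (SE 0.10, adjusted p = 0.0093), and the retinoid X receptor genes Rxra and Rxrg, which supply the partner of PPARa, by 0.26 and 0.30. Sirt1 rose by 0.36, and Ncoa6, a nuclear receptor coactivator, rose by 0.31. Ppargc1b was 8.11 ± 0.24 in HF, 7.45 ± 0.18 in HFCC, 7.94 ± 0.11 in HFDC and 7.41 ± 0.10 in HFGC, and it was also called lower in HFCC (-0.66) and HFGC (-0.70) separately. Of the 15 fits that left out 1 array, its call was lost in 2 for the coffee groups together (adjusted p up to 0.095). It was lost in 5 for HFCC (up to 0.17) and in 3 for HFGC (up to 0.10). The median difference of these 17 genes was 0.02 between HF and ND and -0.02 between the coffee groups and HF, against medians of -0.0015 and 0.0069 over all genes.

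Ehhadh, the bifunctional enzyme that carries out the hydratase and dehydrogenase steps of peroxisomal beta-oxidation, had its highest mean in ND and lay lower in HF, HFCC and HFGC. Its values were 13.90, 13.54 and 13.37 in ND, 12.87, 12.26 and 12.25 in HF, and 12.07, 12.56 and 12.26 in HFCC. They were 13.51, 13.05 and 13.21 in HFDC and 12.81, 12.80 and 12.22 in HFGC. The HF, HFCC and HFGC arrays overlapped with each other and lay below every ND and HFDC array. The HF mean of 12.46 ± 0.36 differed from the ND mean of 13.60 ± 0.27 by -1.14 (SE 0.20, 95% interval -1.57 to -0.70), a 2.20-fold difference, and by -1.07 once the 3' minus 5' value was in the model. The r of Ehhadh with the 3' minus 5' value was -0.29. Ehhadh was read by 1 probe set, so no other probe set could be set beside it.

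**Figure D3:**
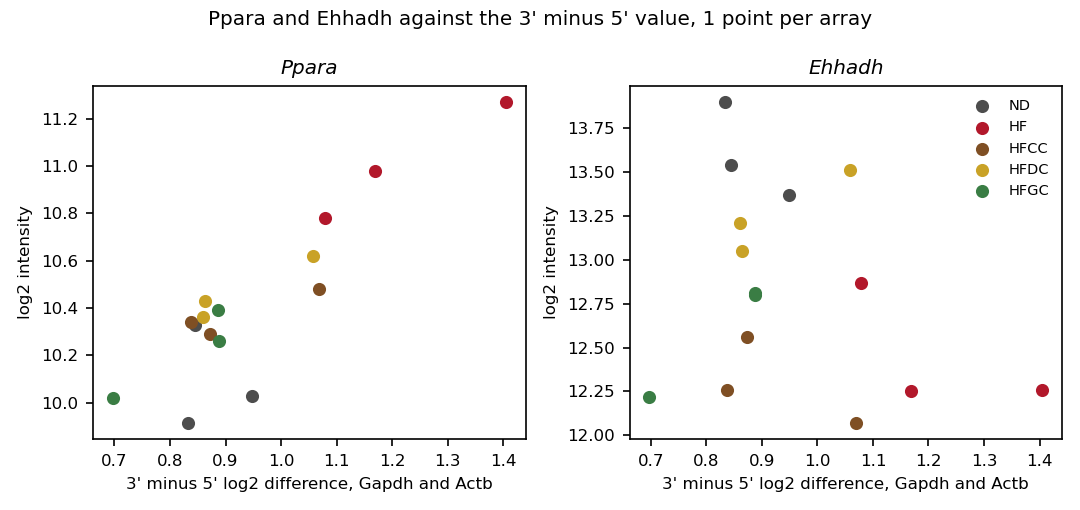
Log2 intensity of Ppara (left) and Ehhadh (right) on the y axis against the 3' minus 5' log2 difference of Gapdh and Actb on the x axis, with 1 point per array coloured by diet group. The HF arrays hold the 3 highest x values, Ppara climbs with x (r = 0.89), and Ehhadh has an r of -0.29.

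Ehhadh was chosen as lower in HF than in ND, and its comparisons with HF or ND reuse those arrays. That choice favours a higher coffee value against HF and a lower one against ND, so these p-values are not independent of it. HFDC was the only coffee group in which Ehhadh was called against HF. It was higher by 0.79 (SE 0.20, 95% interval 0.36 to 1.23, adjusted p = 0.040), a 1.73-fold difference, with 3 of 3 arrays above all HF arrays. HFDC and HF arrays did not overlap in 26.2% of all genes, with 5.02% called. The Ehhadh call in HFDC ended without HF replicate 2 or 3, HFCC replicate 3 or any HFDC array (adjusted p 0.0538 to 0.164), and in a fit of the compared groups alone (adjusted p = 0.089). HFCC differed from HF by -0.17 (95% interval -0.60 to 0.27, adjusted p = 0.74) and HFGC by 0.14 (-0.29 to 0.58, adjusted p = 0.75). The coffee groups together stood 0.26 above HF (adjusted p = 0.37). They were lower than ND, with a log2 difference of -0.88 (SE 0.17, adjusted p = 0.011), where 2 of the 9 genes, Ehhadh and Cyp4a14, and 4.09% of all genes were called. Without ND replicate 1 this difference was -0.73 (adjusted p = 0.063). The HFDC arrays of Ehhadh (13.05 to 13.51) overlapped the ND arrays (13.37 to 13.90), while all HFCC and HFGC arrays lay below them.

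Comparisons between coffee groups share no array with the difference that chose the genes, and none of the 9 genes was called in any of them. Ehhadh came nearest. HFDC exceeded HFCC by 0.96 (SE 0.20, 95% interval 0.53 to 1.39, adjusted p = 0.090), and 0.0934% of all genes were called there. HFGC minus HFDC was -0.65 (95% interval -1.08 to -0.22, adjusted p = 0.45, 0.0385% of genes called). HFGC minus HFCC was 0.31 (95% interval -0.12 to 0.74, adjusted p = 1.00). In that comparison limma called 0% of genes, with 464 at an unadjusted p under 0.05.

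The mean of both caffeinated coffees lay below the decaffeinated one in Ehhadh, with a difference of -0.80 (SE 0.18, 95% interval -1.18 to -0.43, adjusted p = 0.085), with 6 of 6 caffeinated arrays below all HFDC arrays. Over all genes 0.165% were called in this comparison. Ehhadh and Acaa1b, 2 of the 9 genes, had caffeinated and decaffeinated arrays that did not overlap, as did 6.08% of all genes. Once the 3' minus 5' value was in the model, the Ehhadh difference was -0.82 (adjusted p = 0.095). The powders differ in roasting and in other constituents as well as in caffeine, and these cannot be told apart here.

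**Figure D4:**
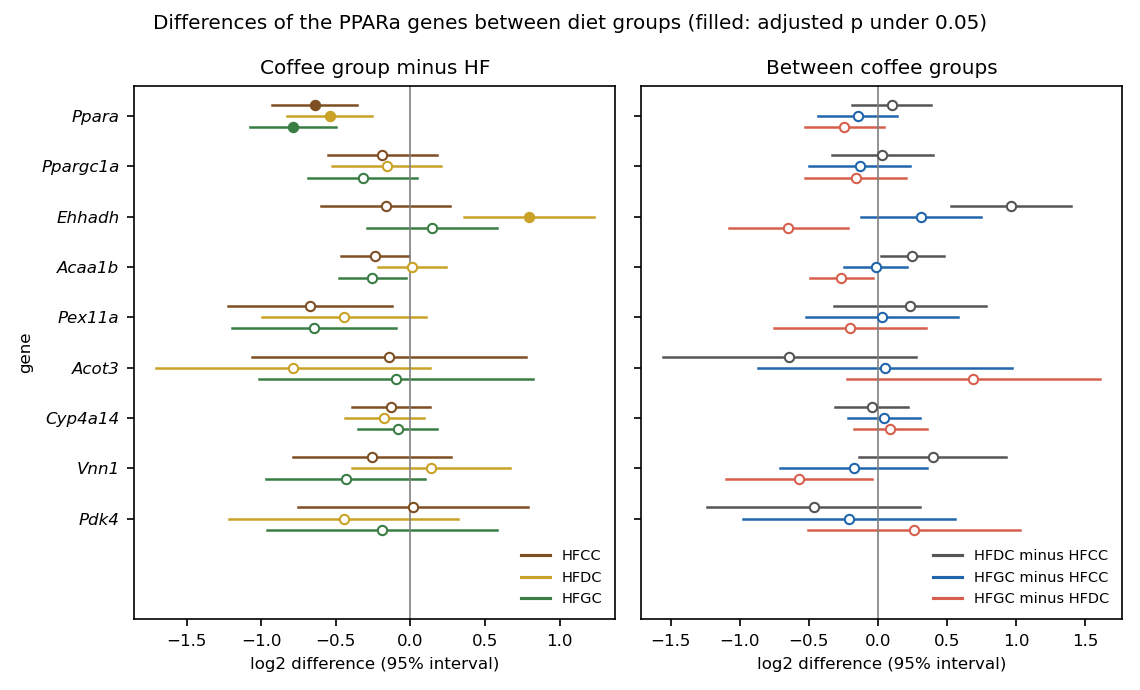
Log2 difference (x axis) of the 9 measured genes (y axis) for each coffee group minus HF on the left and between coffee groups on the right. Lines are 95% intervals and filled points mark an adjusted p under 0.05. Ppara is filled in all 3 coffee groups, Ehhadh in HFDC only, and no point between coffee groups is filled.

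The promoters of Ppara and Ehhadh are shown because these genes stood apart between HF and ND in opposite directions, and a piece of the Fabp1 promoter because it held the receptor's repeat. Promoter windows of 250 bases before and 50 after the start came from RefSeq on build GRCm38.p6 and were found for 7 of the 10 genes. Cyp4a14, Vnn1 and Cpt1b had no entry. Sites outside the windows were not searched, so a window without a match does not show that the gene lacks one. The sequences run 5′ to 3′ along the gene, in lower case, with matches to AGGNCANAGGNCA or CCAAT in capitals.
Ppara, the 250 bases before the start, chr15:85735526-85735775, plus strand: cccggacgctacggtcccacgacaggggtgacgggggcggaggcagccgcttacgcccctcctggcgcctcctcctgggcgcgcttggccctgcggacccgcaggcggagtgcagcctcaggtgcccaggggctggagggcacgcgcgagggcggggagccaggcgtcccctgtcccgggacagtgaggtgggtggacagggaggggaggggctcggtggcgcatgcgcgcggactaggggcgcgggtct
Ehhadh, the 250 bases before the start, chr16:21787835-21788084, minus strand: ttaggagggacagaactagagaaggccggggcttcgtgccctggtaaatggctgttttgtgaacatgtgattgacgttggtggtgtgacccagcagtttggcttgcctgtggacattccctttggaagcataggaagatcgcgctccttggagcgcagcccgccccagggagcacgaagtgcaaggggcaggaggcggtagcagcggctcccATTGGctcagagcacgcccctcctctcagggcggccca
Fabp1, 63 bases around the repeat, chr6:71199787-71199849, plus strand: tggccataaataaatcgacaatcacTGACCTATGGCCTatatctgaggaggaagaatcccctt
The letters AGGNCANAGGNCA, a direct repeat of AGGNCA spaced by 1 base and searched on both strands, were found in 0 of the 7 windows and in 0.381% of 32851 windows of the same length. Of 111 other listed genes with a window, 1 held it, namely Fabp1, the liver fatty acid binding protein, on the minus strand from base -67 to -55 before the start. The shorter AGGTCA, which overlaps that repeat in Fabp1, was in 1 of the 7 windows (Acot3) and in 16.3% of all windows. CCAAT was in 4 of 7 (Acaa1b, Acot3, Ehhadh and Pdk4) and in 37.4% of all windows, and it lay at -38 to -34 on the minus strand in Ehhadh. Fabp1 itself was 14.43 ± 0.14 in ND and 14.43 ± 0.02 in HF, and differed by -0.02 between the coffee groups and HF (adjusted p = 0.88).

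Acaa1b, a thiolase that cleaves the chain in the last step of peroxisomal beta-oxidation, differed little between the groups. Its values were 14.24, 14.21 and 13.92 in ND, 14.06, 14.17 and 14.14 in HF, 13.78, 13.99 and 13.90 in HFCC, 14.20, 14.13 and 14.08 in HFDC, and 13.97, 14.02 and 13.62 in HFGC. The HF mean equalled the ND mean to within 0.0037, with a 95% interval of -0.22 to 0.23. All HFCC and HFGC arrays lay below all HF and all HFDC arrays. Over all genes, arrays did not overlap with HF in 21.5% for HFCC and 23% for HFGC. The mean difference from HF was -0.24 in HFCC (adjusted p = 0.25) and -0.26 in HFGC (adjusted p = 0.19), and that of both caffeinated groups from HFDC was -0.26 (95% interval -0.45 to -0.06, adjusted p = 0.38). Acaa1a is a close copy of Acaa1b, and 2 further probe sets annotated to both differed by -0.05 and -0.11 between HF and ND, so signal from the copies may mix.

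Of 23 other measured genes of peroxisomal oxidation, 1 was called higher and 0 lower in HF than in ND. It was Abcd2, a transporter of very long chain acyl-CoA into peroxisomes, which rose by 1.42 (SE 0.27, adjusted p = 0.0056) from 6.25 ± 0.46 to 7.67 ± 0.27. In the coffee groups together against HF, 0 rose and 3 fell, beside 3.39% and 6.88% of all genes. These were Abcd2 (-0.74), the carnitine acetyltransferase gene Crat (-0.49) and Acaa1a (-0.36), the last read by a probe set that can bind several transcripts. Cat, the catalase that marks peroxisomes, differed by 0.0088 between HF and ND (adjusted p = 0.94). Hsd17b4, the other bifunctional enzyme of the pathway, differed by -0.23 (adjusted p = 0.11) between HF and ND and by 0.05 (adjusted p = 0.76) between the coffee groups and HF.

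Acot3, a peroxisomal thioesterase that frees fatty acids from CoA, was the most variable of the 9 genes, with a pooled SD of 0.64. Its values were 10.23, 9.51 and 9.15 in ND, 10.50, 10.30 and 9.70 in HF, 10.37, 10.35 and 9.34 in HFCC, 10.37, 9.42 and 8.35 in HFDC, and 10.09, 10.50 and 9.61 in HFGC. All groups overlapped. The difference of HF from ND was 0.54 (95% interval -0.38 to 1.45) and that of the coffee groups from HF -0.34 (-1.09 to 0.41, adjusted p = 0.60). Its probe set can bind several transcripts. Of 13 other measured thioesterases, limma called 0 between HF and ND, with 3 at an unadjusted p under 0.05. In the coffee groups 1 fell, Acot7, a cytosolic acyl-CoA hydrolase (-0.27), while Acot1 differed by -0.67 between HF and ND (adjusted p = 0.14).

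Pex11a, which elongates peroxisomes before they divide, was highest in HF by its mean. Its values were 11.01, 10.66 and 10.21 in ND, 11.19, 11.26 and 10.86 in HF, 10.30, 10.56 and 10.43 in HFCC, 11.13, 10.92 and 9.93 in HFDC, and 10.62, 10.63 and 10.14 in HFGC. The HF arrays lay above all HFCC and HFGC arrays and overlapped with ND and HFDC. Separation from HF was found in 21.5% of all genes for HFCC and 23% for HFGC. The difference of HF from ND was 0.48 (95% interval -0.07 to 1.03), and that of the coffee groups from HF -0.59 (-1.04 to -0.14, adjusted p = 0.089). Over the 15 fits that left out 1 array, this coffee difference ran from -0.71 to -0.47 (adjusted p 0.049 to 0.32). Pex11a had an r of 0.57 with the 3' minus 5' value, and of 0.25 after group means were taken out. The part of that value in the Pex11a differences was not tested. The dimmer probe set 1449442_at, with r = 0.97 to the other, differed by 0.69 between HF and ND, and fell in the coffee groups, with a difference of -0.68 (adjusted p = 0.04996) just inside the threshold.

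Of 17 other measured genes of peroxisome assembly and division, 5 were called higher and 2 lower in HF than in ND, beside 8.92% and 4.63% of all genes. Pex11g, a relative of Pex11a, rose by 0.63 (SE 0.10, adjusted p = 0.0022), followed by Pex16 (0.48), Pxmp4 (0.41), Pex6 (0.41) and Pex14 (0.29). Dnm1l, the dynamin-like protein that cuts peroxisomes and mitochondria, fell by 0.37, and Pex5, the receptor that imports matrix proteins, fell by 0.27. Pex16 (-0.38), Pex6 (-0.36) and Pex14 (-0.28) fell in the coffee groups together against HF, and 0 of the 17 rose. Pex11g differed from HF by -0.25 (adjusted p = 0.059) and was called 0.38 above ND (adjusted p = 0.017), though not without ND replicate 1 (0.30, adjusted p = 0.093) or ND replicate 3 (0.37, adjusted p = 0.062).

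Cyp4a14, an omega-hydroxylase of the endoplasmic reticulum that responds strongly to PPARa ligands, had its highest mean in ND. Its values were 13.99, 13.79 and 14.15 in ND, 13.77, 13.70 and 13.67 in HF, 13.75, 13.54 and 13.46 in HFCC, 13.85, 13.45 and 13.31 in HFDC, and 13.68, 13.54 and 13.66 in HFGC. All HF arrays lay below all ND arrays, with the closest values at 13.77 and 13.79, and 1 HFDC array reached into the ND range. The difference of HF from ND was -0.26 (95% interval -0.53 to 0.0012). The coffee groups together were lower than ND, with a log2 difference of -0.39 (SE 0.10, adjusted p = 0.041) and differed from HF by -0.13 (95% interval -0.35 to 0.08, adjusted p = 0.47). The call against ND ended in 10 of 15 fits that left out 1 array (adjusted p 0.0520 to 0.182), those without ND replicate 1 or 3, HF replicate 2 or 3, HFCC replicate 2 or 3, HFDC replicate 2 or 3, or HFGC replicate 1 or 2.

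Of 12 other measured genes of omega-oxidation, 2 were called higher and 2 lower in HF than in ND, beside 8.92% and 4.63% of all genes. Cyp4a31 fell by 1.31 (SE 0.22, adjusted p = 0.0031), from 11.37 ± 0.04 to 10.06 ± 0.29, and the alcohol dehydrogenase gene Adh7 fell by 0.28. Cyp4f13 rose by 0.49 and Adh4 by 0.39. The Adh4 call was lost in 12 of 15 fits that left out 1 array, all but those without ND replicate 2 or 3 or HF replicate 1, and the difference was 0.23 without ND replicate 1 (adjusted p = 0.17). Cyp4a12a differed by -1.16 (adjusted p = 0.056), with all HF arrays below all ND arrays. In the coffee groups together against HF, 1 fell, Cyp4f13 (-0.26), while Cyp4a31 differed by 0.30 (adjusted p = 0.32) and was also called below ND (-1.01, adjusted p = 0.0081). Cyp4a10, Cyp4a12b and Cyp4a32 had no probe set of their own, and near-identical Cyp4a genes may share signal.

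Vnn1, a pantetheinase that recycles the vitamin part of CoA, had overlapping arrays in HF and ND. Its values were 12.62, 12.53 and 12.09 in ND, 12.43, 12.44 and 12 in HF, 11.85, 12.40 and 11.85 in HFCC, 12.72, 12.55 and 12.03 in HFDC, and 12.19, 12.15 and 11.24 in HFGC. All groups overlapped. The HF mean differed from ND by -0.12 (95% interval -0.65 to 0.41) and the coffee groups from HF by -0.18 (-0.62 to 0.25, adjusted p = 0.63). The dimmer probe set 1447845_s_at differed by 0.19 and -0.62 (adjusted p = 0.15), so the sign against ND differed between the probe sets.

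Pdk4, the kinase that shuts pyruvate dehydrogenase when fat is burned, lay below the median gene in level. Its values were 6.12, 5.18 and 5.30 in ND, 6.59, 6.14 and 5.55 in HF, 5.85, 6.69 and 5.81 in HFCC, 6.33, 5.73 and 4.88 in HFDC, and 6.17, 5.52 and 6.02 in HFGC. All groups overlapped, with a difference of 0.56 for HF from ND (95% interval -0.21 to 1.33) and of -0.21 for the coffee groups from HF (-0.83 to 0.42, adjusted p = 0.72). Cpt1b is the muscle form of the carnitine palmitoyltransferase that admits fatty acids into mitochondria. The probe set that Cpt1b shares with Gm44502 and Chkb differed by -0.17 between HF and ND and by -0.28 between the coffee groups and HF (adjusted p = 0.35), and these values cannot be assigned to Cpt1b.

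Of 20 other measured mitochondrial and ketogenic targets, 1 was called higher and 3 lower in HF than in ND. Acads, a dehydrogenase of short acyl-CoA chains, rose by 0.39, while Etfdh (-0.47) and Hadhb (-0.40), which serve electron transfer and the last steps of mitochondrial beta-oxidation, and Acadl (-0.30), a dehydrogenase of long chains, fell. The Hadhb difference turned to 0.068 when its probe sets were averaged. In the coffee groups together against HF, 0 rose and 5 fell, among them Acads (-0.32), the carnitine carrier Slc25a20 (-0.30), Mlycd (-0.25) and Cpt2 (-0.24).

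Of 23 other targets of the receptor, 4 were called higher and 0 lower in HF than in ND. Angptl4, an inhibitor of lipoprotein lipase, rose by 1.49 (SE 0.38, adjusted p = 0.021), and Cd36, which takes up fatty acids, rose by 1.36 from 8.83 ± 0.48 to 10.19 ± 0.18. G0s2, an inhibitor of triglyceride lipase, rose by 0.75, and Slc27a4, a fatty acid transport protein, by 0.39. The G0s2 call was lost in 11 of 15 fits that left out 1 array, all but those without ND replicate 1, HFDC replicate 1 or 3 or HFGC replicate 3, and the difference was 0.41 without ND replicate 3 (adjusted p = 0.13). Cd36 (-0.71), Slc27a4 (-0.41) and Mgll (-0.41), which hydrolyses monoglycerides, fell in the coffee groups together against HF, and 0 rose. Angptl4 differed by -0.76 (adjusted p = 0.14). The Mgll mean was 11.86 in HF, 11.29 in HFCC, 11.73 in HFDC and 11.33 in HFGC. Its call in the coffee groups together was lost in 8 of 15 fits that left out 1 array (adjusted p up to 0.20). The summed level of stellate cell markers was 8.98 to 9.24 in ND and 9.51 to 9.69 in HF, and that of macrophage markers 11.23 to 11.96 and 11.93 to 12.12, with 1 of 4 and 0 of 5 called higher. Of 4 endothelial markers, 1 was called higher in HF than in ND and 1 lower in the coffee groups together, in HFDC and in HFGC than in HF. Their summed level was 9.96 to 10.26 in ND, 10.16 to 10.23 in HF and 9.96 to 10.15 in the coffee groups, so that the HF arrays lay above every coffee array. The part of these cell types in the differences was not tested.

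Over all 7 lists, 123 measured genes were not among the 9. Between HF and ND 13 were called higher and 9 lower (17.9%, beside 13.5% of all genes), and in the coffee groups together against HF 2 rose and 19 fell (17.1%, beside 10.3%). Falls were also the more frequent calls over all genes in the latter comparison, with 3.39% higher and 6.88% lower. Against HF separately, 2 fell in HFCC (1.63%, beside 1.64% of all genes), 2 rose and 6 fell in HFDC (6.5%, beside 5.02%), and 5 fell in HFGC (4.07%, beside 3.09%), shares near those of all genes. Between coffee groups limma called 0 in each pair. Of the 21 genes called in the coffee groups, 18 remained called without HF replicate 1, 0 without HF replicate 2 and 0 without HF replicate 3. Of the 22 called between HF and ND, 19, 8 and 14 remained, and the 8 were Abcd2, Acadl, Adh7, Cd36, Cyp4a31, Cyp4f13, Pex11g and Pex16. Once the 3' minus 5' value was in the model, 0 of the 21 and 1 of the 22 (Cyp4a31) remained called. Without HF replicate 2 the difference between the coffee groups and HF shrank from -0.32 to -0.21 in Acads and from 0.31 to 0.20 in Ncoa6. Of the 22, Pex14 was lost in 11 of 15 fits that left out 1 array, all but those without HF replicate 1 or 1 of the 3 HFDC arrays. Of the 21, Abcd2 was lost in 11 such fits, all but those without ND replicate 2 or 3, HFCC replicate 2 or HFDC replicate 1.

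**Figure D5:**
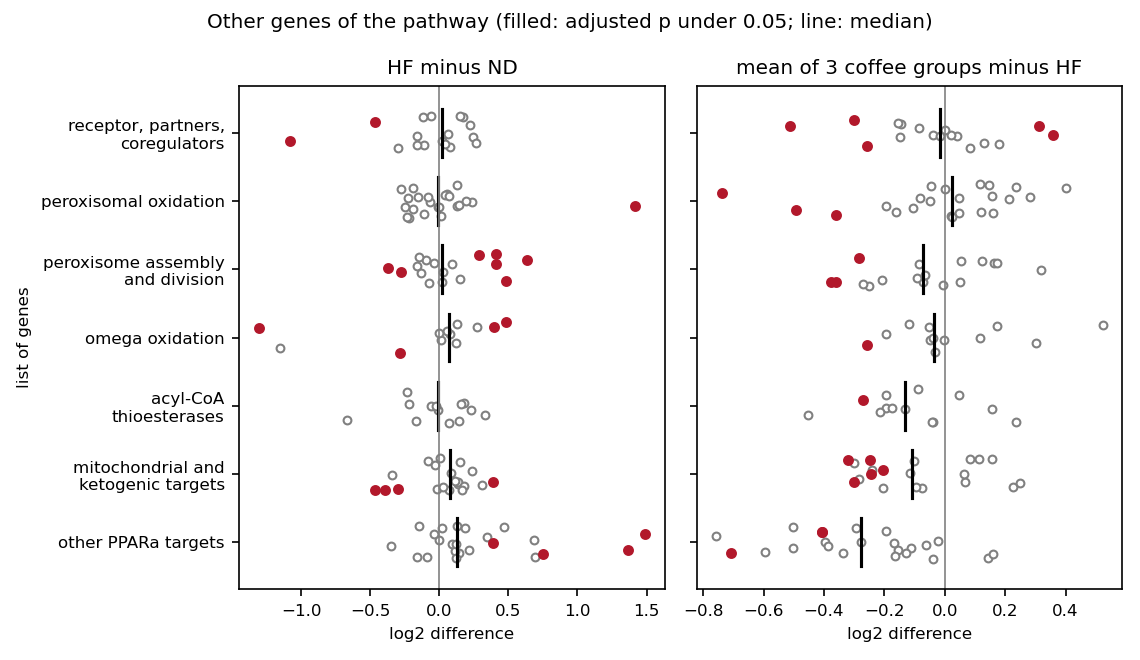
Log2 difference (x axis) of the other measured genes in each of 7 lists (y axis), for HF minus ND on the left and the mean of the 3 coffee groups minus HF on the right. Each point is 1 gene, filled points have an adjusted p under 0.05, and the vertical bar is the list's median. On the right 19 of the 21 filled points lie below 0, in a comparison that called 3.39% of all genes higher and 6.88% lower.

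The 9 genes did not move as a block over the 15 arrays. Ppara and Ehhadh had an r of -0.42, and of -0.13 after group means were taken out. The closest pair was Acaa1b and Vnn1, with an r of 0.87, and of 0.83 after group means were taken out. Pex11a and Vnn1 had an r of 0.72 (0.85 without group means), Acot3 and Pdk4 0.76 (0.73), and Acot3 and Pex11a 0.63 (0.84). Without group means, every pair among Ehhadh, Acaa1b, Acot3, Pex11a, Vnn1 and Pdk4 had a positive r, from 0.21 to 0.85. Ppargc1a had an r of no more than 0.25 with any of the others, and an r of -0.49 with Ppara after group means were taken out. These correlations are descriptions over 15 arrays, in which each pair of values shares the mouse, the RNA and the array.

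By the same measure, the genes nearest to Ppara among 9097 genes at or above the median level were Tex264 (r = 0.94), Tbc1d20, Lamp1, Shisa5 and Arf3 (r = 0.93 to 0.94). These genes were picked for sharing the pattern over the same arrays, so their differences are given as descriptions with no test. Tex264 differed by 0.66 between HF and ND and by -0.51 between the coffee groups and HF. The genes nearest to Ehhadh were Elovl2 (r = 0.95), Pnpla7 (r = 0.92), Ldha (r = 0.90), Elovl5 (r = 0.89) and Igfbp2 (r = 0.89). Elovl2 and Elovl5 are elongases of polyunsaturated fatty acids. Elovl2 differed by -0.76 between HF and ND, and Pnpla7, a lysophospholipase, by -0.74. Between both caffeinated groups and HFDC, Pnpla7 differed by -0.77 and Elovl2 by -0.54. Nearest to Cyp4a14 were Acacb, the acetyl-CoA carboxylase that limits fatty acid entry into mitochondria (r = 0.92), and Inip, Glrx, Lbp and Agpat3 (r = 0.83 to 0.85).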

How the data were processed

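The authors summarised each array by RMA (robust multi-array averaging: background correction, normalization across arrays and 1 value per probe set), per the labels. What was deposited is an intensity for each probe set on the linear scale. No software is named for this step in the sources used here. Labels gave each array's group and replicate, and 0 columns were unmapped.

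The log2 of each value was taken, and each of 18193 genes was represented by its brightest probe set with exactly 1 symbol, by one ending in _x_at only where there was no other. All 15 arrays entered 1 limma 3.58.1 fit (R 4.3.3) with 5 group means and 10 residual degrees of freedom, with Benjamini-Hochberg adjustment over all genes. The 45037 probe sets that are not controls were fitted likewise. The fit was checked on simulated data with independent normal noise in each gene. That noise held no effect shared by the genes of an array, so the check cannot vouch for calls that rest on single arrays. Precision is limited by the 3 arrays a group, and p-values measure only the spread between these arrays. With 1 array per mouse, differences between mice and technical differences in that spread cannot be told apart. The 10 genes and the lists were chosen with earlier results of these data known. Named genes were the 10, up to 4 called and 3 other genes of each list with the largest differences, and the 5 genes most correlated with Ppara, Ehhadh and Cyp4a14. Rxra, Fabp1, Cat, Hsd17b4 and some further list members were named after their values were seen. Alternatives covered the choice of probe set, a level filter, cyclic loess, an offset of 32, the replicate block, eBayes with trend and robust, both thresholds, a 3' minus 5' covariate, the compared groups alone and leaving out each array.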

Additional observations from a re-analysis of the deposited data

How the results depend on the processing

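Counts are of the 9 measured genes unless other listed genes are named. With the 3' minus 5' covariate the calls in the coffee groups together, HFCC, HFDC and HFGC against HF went to 0 each, and other listed genes to 0 in the coffee groups and 1 between HF and ND. The same covariate turned Acot3 to 0.37 (coffee groups together), 0.50 (HFCC) and 0.77 (HFGC) against HF and to -0.22 between HF and ND, Cyp4a14 against HF to 0.10 (coffee groups together), 0.075 (HFCC), 0.028 (HFDC) and 0.19 (HFGC), and Ppargc1a between HF and ND to 0.32. Averaged probe sets turned Hadhb between HF and ND to 0.068. The cause was not tested.

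With only the compared groups in the fit, calls went to 0 in HFCC, HFDC and HFGC against HF, to 1 in the coffee groups against ND, and to 6 other listed genes between HF and ND. For HFDC against HF the count was 1 with averaged probe sets, cyclic loess, the offset, eBayes with trend and robust, or a 1.5-fold minimum. For the coffee groups against ND it was 1 with cyclic loess, the offset or a 1.5-fold minimum. At an adjusted p under 0.10 it was 2 in the coffee groups against HF, 1 in HFDC against HFCC and 1 in the caffeinated groups against HFDC, with 32 other listed genes in the coffee groups against HF. A 1.5-fold minimum left 2 other listed genes there and 7 between HF and ND.

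Leaving out each array gave 0 to 2 calls in the coffee groups against HF, 0 to 2 against ND, 0 to 1 in HFCC, 0 to 2 in HFDC and 0 to 1 in HFGC against HF, and 0 in every comparison between coffee groups. Other listed genes ranged from 9 to 27 between HF and ND and from 0 to 30 in the coffee groups against HF.

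Same-numbered arrays of different groups correlated by -0.28 to 0.23 (median 0.06, with 6 of 30 pairs over 0.1), so the number was not taken as pairing. With the replicate block the calls went to 2 in the coffee groups against HF, with Pex11a added (-0.59, adjusted p = 0.026), and to 1 in the caffeinated groups against HFDC, with Ehhadh at -0.80 (adjusted p = 0.049).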

Other observations

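The array numbered 3 held the lowest value of its group for Acot3 and for Vnn1 in 5 of 5 groups and for Pex11a in 4 of 5. For Ppara the array numbered 3 was the lowest in 2 of 5 groups and for Ppargc1a in 0 of 5. The labels do not say what a number shares across groups.

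Some other listed genes were called in single coffee groups against HF. Slc27a4 fell in HFCC (-0.40), HFDC (-0.43) and HFGC (-0.39), and Cd36 in HFDC (-0.91) and HFGC (-0.93), each by log2 differences from HF. Vnn3, a relative of Vnn1, fell in HFDC (-0.39, adjusted p = 0.026), and Mlycd, which removes malonyl-CoA, fell in HFGC (-0.31, adjusted p = 0.034). Ncoa2, a nuclear receptor coactivator, rose in HFDC (0.28, adjusted p = 0.031). Each of these calls ended without HF replicate 2, without HF replicate 3 and with the 3' minus 5' covariate, with the direction kept. Of the 15 fits that left out 1 array, the Slc27a4 call was lost in 8 for HFCC and in 4 for HFDC. Every other call named here was lost in 5. Against ND the coffee groups together were lower in Pex5 (-0.35, adjusted p = 0.0096), a call kept without any 1 array. They were lower in Lpin1 as well (-1.17, adjusted p = 0.018), but at -0.81 without ND replicate 2 (adjusted p = 0.082).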
